A study of Arabidopsis thaliana with 12 samples.

Results

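The genes described here stood in a strict order across 3 genotypes of Arabidopsis thaliana shoot apices, with every ap2-12 library on one side of every wild-type library and every rAP2-VENUS library on the other side. A gene was taken when its mean was at least 2 CPM (counts per 1000000 counts of the library) over the 12 libraries and the 3 groups of 4 libraries did not overlap in that order or its reverse. Of 27416 genes in the table, 17032 reached that mean, and 208 of these (1.22%) met the order. Of 14 loci set aside by name, mostly flowering, myrosinase and transporter genes, 12 met it and were left out, which leaves 196 genes. In 92 the level was lowest in ap2-12 and highest in rAP2-VENUS, called rising below, and in 104 it was highest in ap2-12 and lowest in rAP2-VENUS, called falling. All 196 passed the low-count filter of the model fit.

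The libraries were made from apices of plants grown in days of 16 h of light, taken at a main stem height of 1 cm. WT is accession Col-0, ap2-12 is a mutant of APETALA2 (AP2), and rAP2-VENUS line #A6 is a single named line whose name pairs AP2 with the fluorescent protein VENUS. Each genotype has 4 replicates that the labels call independent. The extraction protocol names 15 apices, without saying whether that is the number pooled per library. The labels do not state what r stands for, which promoter drives the construct, or whether the plants carrying it also have a normal AP2 gene. AP2 encodes a transcription factor of the AP2/ERF family that specifies sepals and petals, keeps the stamen and carpel gene AGAMOUS out of the outer whorls and delays flowering, and its messenger RNA is a target of the microRNA miR172. Transcripts counted in an apex come from the meristem, young flower buds and the stem tissue just under them, each with its own genes for identity, wall building and metabolism. In such a bulk sample, fewer cells of a type and less RNA per cell cannot be told apart.

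Because the rule read the levels in all 3 genotypes, the genotype differences of these genes are what they were selected on. They are given as a description, with fold changes and standard errors (SE) but no p for any single gene. Counts of graded genes called by the fit stand beside the shares of all genes, and nothing is read from those counts. Levels are CPM on library totals, the scale of the rule. Log2 fold changes are from an edgeR fit to all 12 libraries on totals scaled by TMM (the trimmed mean of M-values). Both steps, ap2-12 to WT and WT to rAP2-VENUS, share the WT libraries. AP2 itself was not among the graded genes. Its level was 21.5, 16.1, 18.0 and 15.9 CPM in ap2-12 replicates 1 to 4, 92.0, 49.2, 42.1 and 43.7 CPM in WT and 57.7, 43.5, 41.1 and 41.2 CPM in rAP2-VENUS. The ap2-12 libraries lay below all others, while the WT and rAP2-VENUS libraries overlapped. A count per gene does not part reads of the construct from those of the native gene.

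Library totals ran from 9680133 to 15152704 counts. The meristem and flower markers STM, WUS, KNAT1, LFY and AP1 were present in every library, with AP1 at 77.8 to 87.7 CPM in ap2-12, 163 to 192 CPM in WT and 135 to 146 CPM in rAP2-VENUS. STM and LFY were also lower in ap2-12. STM was at 26.4 to 35.0 CPM in ap2-12, 55.4 to 81.5 CPM in WT and 55.2 to 75.9 CPM in rAP2-VENUS. LFY was at 18.2 to 23.5, 25.3 to 33.3 and 27.6 to 33.7 CPM. For WUS and KNAT1 the ap2-12 and WT libraries overlapped. CLV3, a peptide gene of the meristem's stem cells, was counted at 0 to 0.517 CPM over all libraries. Marker sums of other tissues differed between genotypes too. The summed level of 10 xylem and wall genes was 24.6 to 35.1 CPM in ap2-12, 77.4 to 89.7 CPM in WT and 107 to 113 CPM in rAP2-VENUS, and that of 15 photosynthesis genes was 7850 to 9330, 12800 to 17200 and 14000 to 15500 CPM. For 13 tapetum and pollen wall genes the sums were 645 to 1830 CPM in ap2-12, 307 to 689 CPM in WT and 527 to 913 CPM in rAP2-VENUS, and for 10 carpel and ovule genes they were 460 to 568, 266 to 429 and 308 to 355 CPM. The sums include graded genes, whose order the rule set. They are 5 of the 10 xylem genes, 3 of the 15 photosynthesis genes and 1 of the 10 carpel and ovule genes. Of the 5 xylem genes outside the graded set, CESA7 and CESA8 had higher means in rAP2-VENUS than in WT. VND7, IRX9 and MYB46 had lower ones.

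The 250 bases upstream of 4 graded genes are shown because they hold a G-box, CACGTG, the palindromic site of many bHLH and bZIP proteins, and come from both directions and from different roles. They are read from RefSeq assembly TAIR10.1 in the direction of transcription, end at the base before the annotated start, and have the G-box in capitals. ADH1 (chr1:28975005-28975254, plus strand) is an alcohol dehydrogenase of fermentation and PRN (chr3:21893562-21893811, plus strand) is a pirin, both falling. RBCS2B (chr5:15382072-15382321, minus strand) encodes a small subunit of Rubisco and AT3G45680 (chr3:16770638-16770887, plus strand) a major facilitator transporter by its RefSeq name, both rising.
ADH1: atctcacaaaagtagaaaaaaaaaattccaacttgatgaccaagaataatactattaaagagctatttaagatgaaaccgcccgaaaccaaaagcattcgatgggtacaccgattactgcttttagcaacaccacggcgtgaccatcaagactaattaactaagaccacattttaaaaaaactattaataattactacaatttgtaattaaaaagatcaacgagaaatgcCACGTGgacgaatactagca
PRN: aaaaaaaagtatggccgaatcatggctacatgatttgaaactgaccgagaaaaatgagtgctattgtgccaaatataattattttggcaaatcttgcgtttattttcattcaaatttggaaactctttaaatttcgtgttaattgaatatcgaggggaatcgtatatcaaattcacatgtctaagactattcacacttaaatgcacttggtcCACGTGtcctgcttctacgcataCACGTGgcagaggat
RBCS2B: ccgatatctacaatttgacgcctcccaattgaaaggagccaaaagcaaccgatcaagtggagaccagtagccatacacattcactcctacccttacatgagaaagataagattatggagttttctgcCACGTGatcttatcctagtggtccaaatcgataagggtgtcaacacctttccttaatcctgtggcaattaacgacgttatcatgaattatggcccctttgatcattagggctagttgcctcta
AT3G45680: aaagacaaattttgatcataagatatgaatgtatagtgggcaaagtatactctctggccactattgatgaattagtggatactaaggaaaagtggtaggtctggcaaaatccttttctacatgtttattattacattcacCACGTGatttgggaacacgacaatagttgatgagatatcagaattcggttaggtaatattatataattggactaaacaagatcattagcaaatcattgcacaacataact
PRN holds the box at 2 places and the other 3 genes at 1 place each, and no other annotated gene overlaps these stretches.

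The searched motifs were about as frequent upstream of the graded genes as upstream of all genes, or less so. Motifs were looked for on both strands from 250 bases before to 50 bases after the annotated start. TTTGTT, the motif bound in vitro by the second AP2 repeat of AP2, was in 126 of the 196 windows (64.3%), beside 61.6% of 16972 genes that reached 2 CPM and 61.7% of 26718 nuclear genes. A 6-letter motif of this kind is common, and the rising genes (63.0%) and the falling genes (65.4%) had similar shares. The G-box was in 12 windows (6.12% against 9.04% and 7.79%), and in 10 of them it lay before the start. The CArG box, the site of MADS-domain proteins, was in 4 windows (2.04% against 3.36% and 3.08%). GCCGCC, the GCC box of ERF proteins, was in 5 (2.55% against 2.65% and 2.55%). These are matches of letters, not binding sites.

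The graded genes ranged widely in level and in step size. Mean levels ran from 2.18 to 621 CPM in the rising set (median 10.8) and from 2.04 to 415 CPM in the falling set (median 17.5). The log2 fold change from ap2-12 to rAP2-VENUS was 0.41 to 6.70 in the rising set (median 1.71) and -5.60 to -0.11 in the falling set (median -0.845). It came to at least 2-fold in 68 of 92 rising and 43 of 104 falling genes, and to at least 4-fold in 31 and 12. Small steps were common among the falling genes, of which 22 had both steps under 1.2-fold, against 3 of the rising genes. The median log2 fold change of all 18807 genes tested was 0 in both comparisons with WT. TMM scaling centres most genes near 0, so this median follows largely from the scaling.

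**Figure D1:**
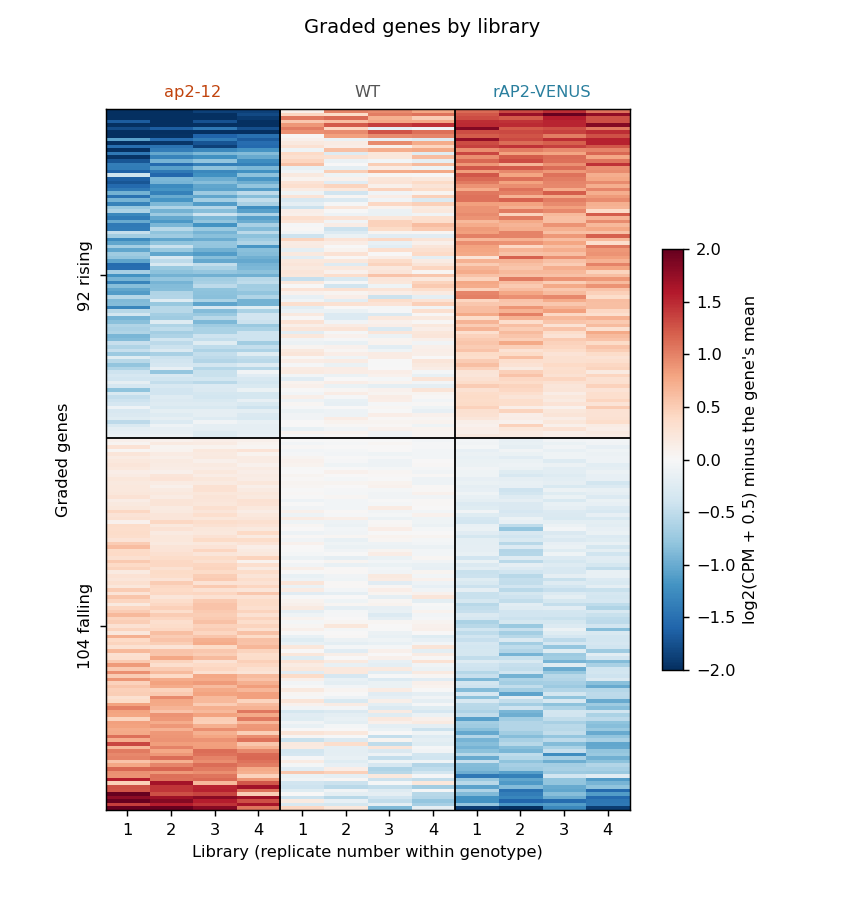
Level of each of the 196 graded genes (rows, sorted by the fold change from ap2-12 to rAP2-VENUS) in the 12 libraries (columns, by genotype and replicate number), as log2(CPM + 0.5) minus the gene's mean over libraries, with colours ending at -2 and 2. The 92 rising genes are blue in ap2-12 and red in rAP2-VENUS, the 104 falling genes the reverse, and the palest rows in the middle are the genes with the smallest steps.

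For most graded genes the step between ap2-12 and WT was the larger of the 2 steps. It was larger in 135 of 196 genes, 73 rising and 62 falling. Over all genes tested, 15.2% were called in ap2-12 against WT and 0.627% in rAP2-VENUS against WT (adjusted p under 0.05, edgeR). The share of all genes with the larger step on the ap2-12 side was not computed. The rule also read both steps, so nothing is read from this count. Its share of the whole log2 change had a median of 63.7% in the rising set (30.0 to 92.0%) and 52.6% in the falling set (22.6 to 83.6%). CA1, with 92.0% of its change between ap2-12 and WT, stood at one end, and NGA2 (26.5%) and GDU4 (33.3%) were near the other. Genes with at least 2-fold in both steps numbered 8 in the rising set and 3 in the falling set, the latter being CYP79B3, PCO2 and GL3.

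By the fit's threshold, a Benjamini-Hochberg adjusted p under 0.05 over all genes, 145 of the 196 genes were called in ap2-12 against WT, where 15.2% of all genes tested were called. These were 86 rising genes, beside 9.59% of all genes called lower in ap2-12, and 59 falling genes, beside 5.65% called higher. In rAP2-VENUS against WT 30 were called with 0.627% of all genes called, 20 of them rising (0.261% of all genes higher) and 10 falling (0.367% lower). In rAP2-VENUS against ap2-12 192 were called beside 19.6% of all genes, 92 of them rising (11.7% higher) and 100 falling (7.86% lower). These contrasts are the ones that chose the genes, so nothing is read from the counts. The 30 became 74 with the replicate number as a block in the fit, 87 with DESeq2 and 17 when only WT and rAP2-VENUS were fitted.

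**Figure D2:**
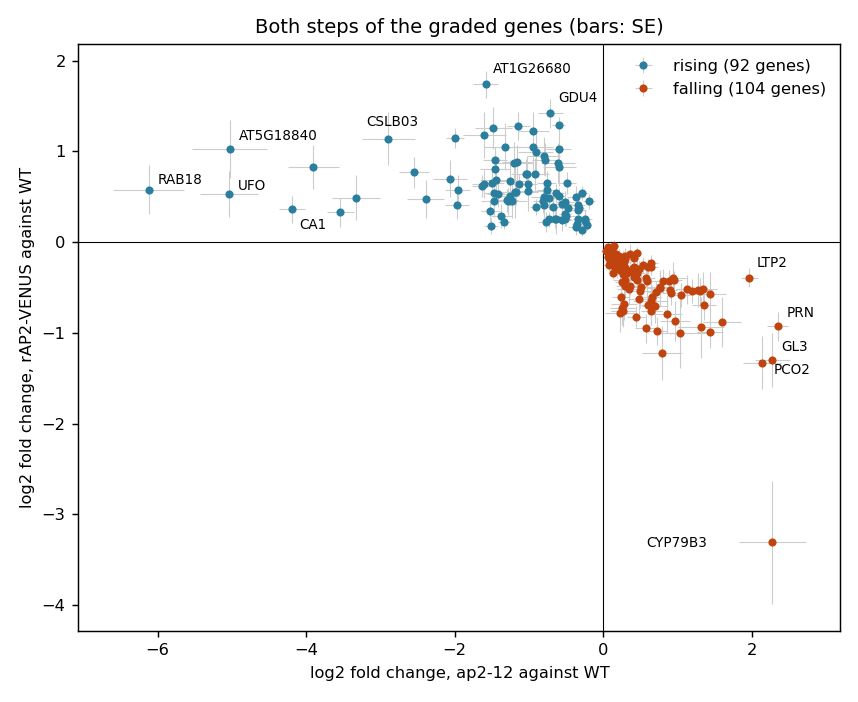
Log2 fold change in ap2-12 against WT (horizontal) and in rAP2-VENUS against WT (vertical) for the 92 rising and 104 falling genes, both axes sharing the WT libraries. Bars are 1 SE, the log2 fold change over the root of its F statistic in the edgeR fit. The rule places all points in the upper left and lower right. RAB18, UFO and AT5G18840 lie farthest left and CYP79B3 lies lowest. For genes like these, with few counts in a genotype, such bars can understate the error.

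Flower and carpel regulators made up 6 of the graded genes, 5 falling and 1 rising. UFO, an F-box partner of LEAFY that activates petal and stamen identity genes, was the rising one. Its level was 0.159, 0, 0.144 and 0.277 CPM in ap2-12 replicates 1 to 4, 5.58, 5.87, 4.29 and 3.64 CPM in WT and 6.66, 6.29, 8.13 and 6.53 CPM in rAP2-VENUS. The ap2-12 libraries together held 8 counts and the WT libraries 254, a ratio of 33.2 in level (95% exact interval from counting alone 16.6 to 77.8). UFO was thus close to 0 in the mutant, and from WT to rAP2-VENUS it was 1.44-fold higher (log2 fold change 0.53, SE 0.25). Exact intervals here and below leave out the spread between replicates. They test nothing, as the rule selected the genes on these differences.

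The falling floral genes act mostly in the inner whorls. CRC, a YABBY gene of carpels and nectaries, was at 225, 159, 158 and 130 CPM in ap2-12, 102, 113, 62.0 and 74.9 CPM in WT and 48.8, 60.1, 48.3 and 42.8 CPM in rAP2-VENUS. WT replicate 3 and rAP2-VENUS replicate 2 nearly met, and CRC lost the order under each of 3 other library scalings (TMM, DESeq2 size factors, upper quartile). CRC was 1.82-fold higher in ap2-12 than in WT (log2 fold change 0.86, SE 0.20) and 1.73-fold lower in rAP2-VENUS (-0.79, SE 0.21). SUP, a zinc-finger gene of the boundary between stamens and carpels, was at 5.26, 6.16, 6.85 and 6.38 CPM in ap2-12, 2.79, 2.51, 2.18 and 1.75 CPM in WT and 1.35, 1.63, 1.61 and 1.74 CPM in rAP2-VENUS. Its ap2-12 libraries stood well clear of the rest, while WT replicate 4 and rAP2-VENUS replicate 4 differed by less than the spread within WT. HEC1, a bHLH gene of stigma and transmitting tract, had the same shape, with 6.13, 6.23, 5.69 and 4.57 CPM in ap2-12, 2.07, 2.77, 1.45 and 1.61 CPM in WT and 1.12, 1.34, 1.42 and 1.39 CPM in rAP2-VENUS. The log2 fold changes against WT were 1.35 (SE 0.18) and -0.52 (SE 0.19) for SUP and 1.44 (SE 0.22) and -0.57 (SE 0.24) for HEC1.

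NGA2 and SRS7, which act in style and gynoecium development as members of the B3 and SHI/STY families, had their larger step on the other side. NGA2 was 5.74 ± 0.398 CPM (SD, n = 4) in ap2-12, 4.53 ± 0.545 in WT and 2.61 ± 0.553 in rAP2-VENUS. SRS7 was 13.8 ± 1.48, 8.85 ± 1.06 and 4.54 ± 0.902 CPM. Their steps from WT to rAP2-VENUS were -0.76 (SE 0.18) and -0.95 (SE 0.16), against 0.27 (SE 0.17) and 0.58 (SE 0.15) from WT to ap2-12.

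Most relatives of these genes were not graded. Of the 16 tested floral identity genes outside the graded set, 5 were called higher and 7 lower in ap2-12 against WT by edgeR (adjusted p under 0.05). In rAP2-VENUS against WT none of the 16 was called by edgeR, with 4 higher and 4 lower at an unadjusted p under 0.05, 1 higher and 1 lower by DESeq2, and 2 lower with the replicate block. Both close relatives of HEC1 were outside the graded set. HEC2 was 14.9 CPM in ap2-12, 5.96 in WT and 4.03 in rAP2-VENUS, with WT at 3.71 to 9.71 CPM overlapping rAP2-VENUS at 3.29 to 4.63 CPM. Its steps of 1.27 (SE 0.25) and -0.53 (SE 0.27) were close to those of HEC1. HEC3 was 10.4, 2.04 and 1.99 CPM, the last step -0.01 (SE 0.24). Of the 9 carpel and ovule genes outside the graded set, 7 were called higher in ap2-12 and none lower, also at an unadjusted p under 0.05 and by DESeq2. In rAP2-VENUS none of the 9 was called by edgeR or DESeq2, with 1 higher and 1 lower at an unadjusted p under 0.05. The summed carpel and ovule level given above was highest in ap2-12 as well. That sum holds the graded HEC1, and its most abundant gene was ANT, at 295, 223 and 212 CPM on average in ap2-12, WT and rAP2-VENUS. ANT was not called in ap2-12 against WT by edgeR (log2 fold change 0.33, SE 0.19). The part of tissue makeup in the floral genes was not tested.

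**Figure D3:**
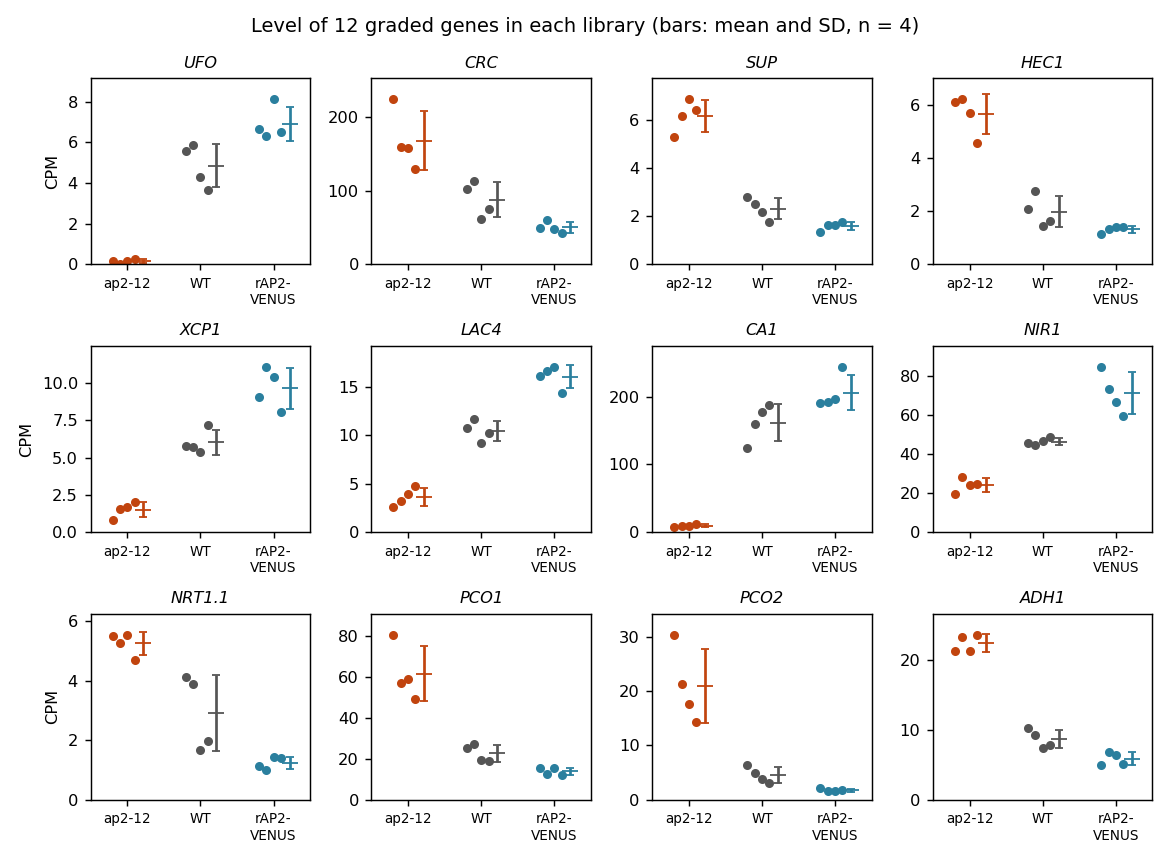
Level in CPM (vertical axes, starting at 0, a scale for each gene) of 12 graded genes in each library, with points for replicates 1 to 4 from left to right and the mean with its SD (n = 4) beside them. UFO and CA1 were near 0 in ap2-12, the low-oxygen genes PCO1, PCO2 and ADH1 were highest in ap2-12, and the nitrate genes NIR1 and NRT1.1 went in opposite directions.

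The 4 graded genes grouped here under the response to low oxygen, a group drawn up after the values were seen, were all in the falling set. PCO1 and PCO2 are plant cysteine oxidases, which use oxygen to mark group VII ERF factors for breakdown and are themselves induced when oxygen is low. PCO2 was at 30.4, 21.3, 17.7 and 14.4 CPM in ap2-12, 6.40, 4.95, 3.86 and 3.08 CPM in WT and 2.17, 1.55, 1.61 and 1.74 CPM in rAP2-VENUS. Replicate 1 was the highest library of each genotype, and even the lowest ap2-12 library was more than 2 times the highest WT library. PCO2 was 4.40-fold higher in ap2-12 than in WT (log2 fold change 2.14, SE 0.25) and 2.51-fold lower in rAP2-VENUS (-1.33, SE 0.29).

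PCO1, the more abundant of the pair in reads, was at 80.6, 57.2, 58.9 and 49.4 CPM in ap2-12, 25.5, 27.1, 19.6 and 18.8 CPM in WT and 15.5, 12.8, 15.3 and 12.1 CPM in rAP2-VENUS. Its steps were 1.36 (SE 0.16) and -0.69 (SE 0.17) on the log2 scale. ADH1, whose upstream G-box is printed above, was at 21.3, 23.3, 21.2 and 23.6 CPM in ap2-12, 10.2, 9.31, 7.35 and 7.78 CPM in WT and 4.94, 6.85, 6.43 and 5.14 CPM in rAP2-VENUS. Its ap2-12 libraries were close together, at 22.4 ± 1.27 CPM (SD, n = 4), and its steps were 1.30 (SE 0.14) and -0.54 (SE 0.15). AT4G10270, of the wound-responsive family by its RefSeq name, was at 40.9, 24.2, 25.4 and 13.9 CPM in ap2-12, 9.71, 8.38, 8.44 and 6.38 CPM in WT and 5.01, 3.39, 5.10 and 4.17 CPM in rAP2-VENUS. Its ap2-12 replicates spread almost as widely as the step to WT, which was 1.60 (SE 0.26).

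A list of 12 low-oxygen genes, drawn up after these values were seen and so given without tests, had 9 genes with enough counts, ADH1, PCO1 and PCO2 among them. The median log2 fold change against WT was 1.30 in ap2-12 and -0.18 in rAP2-VENUS. All 9 had log2 fold changes above 0 in ap2-12. LBD41 (log2 fold change 1.19, SE 0.21), HRA1 (1.57, SE 0.33) and the haemoglobin gene HB1 (1.67, SE 0.31) were higher there but close to WT in rAP2-VENUS, at -0.15 (SE 0.21), -0.33 (SE 0.34) and -0.09 (SE 0.35). PDC1, the pyruvate decarboxylase that acts with ADH1, was near WT in both, at 0.17 (SE 0.21) and -0.18 (SE 0.22). PCO1, PCO2 and AT4G10270 also differed between replicate numbers, as described below.

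Xylem and secondary wall genes were all in the rising set, 5 in number from a list of 10. XCP1 and XCP2 are cysteine proteases that clear the contents of dying vessel cells, LAC4 and LAC17 are laccases that join lignin units, and CESA4 is a subunit of the cellulose synthase of secondary walls. XCP1 was at 0.797, 1.52, 1.66 and 2.01 CPM in ap2-12, 5.79, 5.68, 5.38 and 7.22 CPM in WT and 9.05, 11.1, 10.4 and 8.05 CPM in rAP2-VENUS. The ap2-12 libraries stood well below WT, while the gap between WT replicate 4 and rAP2-VENUS replicate 4 was smaller than the range within either group. The steps were -2.06 (SE 0.23) in ap2-12 and 0.70 (SE 0.20) in rAP2-VENUS against WT. LAC4 was at 2.55, 3.25, 3.89 and 4.71 CPM in ap2-12, 10.8, 11.7, 9.17 and 10.2 CPM in WT and 16.2, 16.7, 17.1 and 14.4 CPM in rAP2-VENUS. LAC17 was at 2.47, 3.60, 3.53 and 4.09 CPM, at 9.50, 7.99, 8.66 and 11.0 CPM and at 17.0, 12.9, 13.5 and 14.3 CPM in the same order. The steps were -1.60 (SE 0.17) and 0.64 (SE 0.15) for LAC4 and -1.50 (SE 0.16) and 0.65 (SE 0.15) for LAC17.

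XCP2 was at 6.77, 11.9, 12.9 and 10.7 CPM in ap2-12, 23.3, 23.6, 23.6 and 27.5 CPM in WT and 32.9, 29.9, 34.0 and 35.3 CPM in rAP2-VENUS. CESA4 was at 2.79, 3.32, 3.46 and 4.30 CPM, at 10.2, 8.98, 9.97 and 8.90 CPM and at 11.9, 12.2, 11.6 and 11.8 CPM. Its upper step was the smallest of the 5, at 0.34 (SE 0.12). Of the 5 list genes outside the graded set, 4 were called lower in ap2-12 by edgeR and by DESeq2, and 5 at an unadjusted p under 0.05. None was higher by any of these counts. In rAP2-VENUS none was called by edgeR, with 1 higher at an unadjusted p under 0.05 and none called by DESeq2. The cellulose synthase partners CESA7 (log2 fold change in rAP2-VENUS 0.32, SE 0.14) and CESA8 (0.28, SE 0.17) had upper steps like that of CESA4 but overlapping libraries. The regulators MYB46 (-0.08, SE 0.33) and VND7 (-0.27, SE 0.45) were counted at 1.86 CPM or less in every library. How much xylem each sample held was not measured and its part in these differences was not tested.

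The 6 photosynthesis and plastid genes grouped here were all in the rising set too, and most of their change lay between ap2-12 and WT. CA1, RBCS2B and RBCS3B came from the fixed list, while CDSP32, FNR2 and GGR were added after the values were seen. CA1, a carbonic anhydrase of the chloroplast, was at 7.01, 8.86, 9.30 and 11.9 CPM in ap2-12, 124, 159, 177 and 187 CPM in WT and 191, 192, 196 and 244 CPM in rAP2-VENUS. The mutant was 18.3-fold below WT (log2 fold change -4.19, SE 0.18), and rAP2-VENUS was 1.29-fold above it (0.36, SE 0.15). WT replicate 4 and rAP2-VENUS replicate 1 were close to each other.

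RBCS2B and RBCS3B lie next to each other on chromosome 5 and encode near-identical small subunits of Rubisco, so reads may have been split or dropped between them and the other copies. RBCS2B was at 10.3, 18.0, 19.5 and 19.3 CPM in ap2-12, 168, 173, 215 and 193 CPM in WT and 222, 223, 231 and 249 CPM in rAP2-VENUS. RBCS3B was at 242, 289, 286 and 284 CPM, at 652, 711, 825 and 810 CPM and at 830, 835, 837 and 848 CPM, and it lost the order under 1 of the 3 other scalings. Both were lowest in ap2-12 replicate 1. Their lower steps differed in size, -3.54 (SE 0.18) for RBCS2B and -1.51 (SE 0.09) for RBCS3B, while the upper ones were 0.33 (SE 0.16) and 0.18 (SE 0.09).

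The other 3 plastid genes had more even steps. CDSP32, a thioredoxin of the drought response, was 17.4 ± 0.944 CPM (SD, n = 4) in ap2-12, 31.0 ± 0.886 in WT and 40.0 ± 4.22 in rAP2-VENUS. FNR2, a ferredoxin reductase of leaves, was 158 ± 5.41, 191 ± 14.4 and 224 ± 11.3 CPM. GGR, a subunit that joins geranylgeranyl diphosphate synthase, was 28.8 ± 1.60, 32.7 ± 1.22 and 38.2 ± 5.08 CPM. Of the 12 photosynthesis list genes outside the graded set, 10 were called lower in ap2-12 by edgeR, and 11 at an unadjusted p under 0.05 and by DESeq2. None was higher by any of these counts. In rAP2-VENUS none of the 12 was called by edgeR, at an unadjusted p under 0.05 or by DESeq2, and their log2 fold changes lay between -0.12 and 0.17. RBCS1B, with 9.08 to 10.7 CPM in ap2-12, 87.1 to 122 CPM in WT and 94.1 to 128 CPM in rAP2-VENUS, had a lower step like that of RBCS2B without the upper one.

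**Figure D4:**
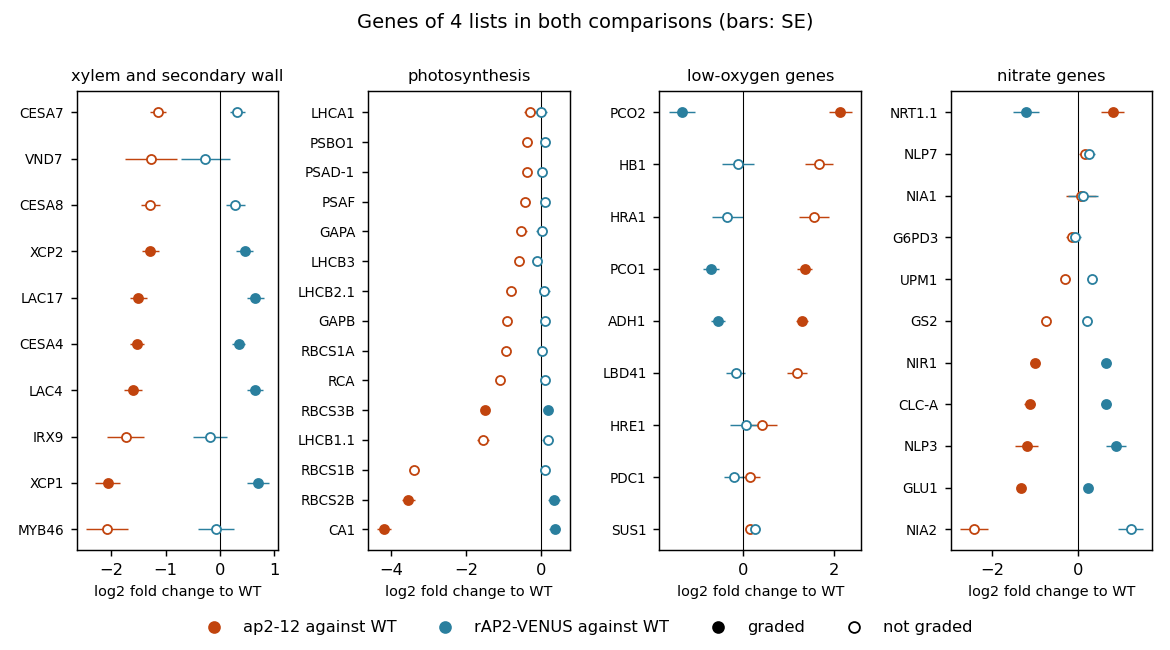
Log2 fold change against WT (horizontal, a scale for each panel, bars of 1 SE) in ap2-12 and in rAP2-VENUS for the tested genes of 4 lists, with filled points for graded genes and open points for the rest. In the xylem and photosynthesis panels all ap2-12 points lie left of 0, and the rAP2-VENUS points of the genes that are not graded lie between -0.27 and 0.32. The low-oxygen and nitrate lists were drawn up after the values were seen.

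Genes of nitrate uptake and assimilation and of amino acid and ureide transport numbered 10, of which 7 were rising and 3 falling. NIR1, the nitrite reductase, was at 19.5, 28.2, 24.0 and 24.7 CPM in ap2-12, 45.4, 44.7, 46.8 and 48.6 CPM in WT and 84.7, 73.5, 66.9 and 59.7 CPM in rAP2-VENUS. Its WT libraries were within a narrow range and the rAP2-VENUS libraries spread more, with steps of -1.01 (SE 0.12) and 0.64 (SE 0.12). CLC-A, which loads nitrate into the vacuole, was at 18.0, 22.1, 19.0 and 20.7 CPM, at 32.6, 39.3, 47.6 and 46.9 CPM and at 65.1, 60.5, 62.2 and 68.4 CPM. Its steps, -1.13 (SE 0.12) and 0.64 (SE 0.11), were like those of NIR1.

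NRT1.1, the dual-affinity nitrate transporter and sensor, went the other way. It was at 5.50, 5.26, 5.55 and 4.71 CPM in ap2-12, 4.13, 3.89, 1.67 and 1.96 CPM in WT and 1.12, 0.989, 1.42 and 1.39 CPM in rAP2-VENUS. WT parted into replicates 1 and 2, nearer to ap2-12, and replicates 3 and 4, nearer to rAP2-VENUS, so both steps have wide errors, 0.79 (SE 0.27) and -1.22 (SE 0.30). NLP3, a relative of the nitrate-response factor NLP7, was 0.943 ± 0.272 CPM (SD, n = 4) in ap2-12, 2.05 ± 0.492 in WT and 3.75 ± 0.302 in rAP2-VENUS. GLU1, the ferredoxin-dependent glutamate synthase of leaves, was at 110, 118, 96.3 and 104 CPM in ap2-12, 253, 248, 243 and 280 CPM in WT and 292, 292, 291 and 303 CPM in rAP2-VENUS. Its libraries lay apart by far in the mutant and by little in rAP2-VENUS, with steps of -1.33 (SE 0.08) and 0.22 (SE 0.08).

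Of a list of 12 nitrate genes, drawn up after the values were seen and given without tests, NRT2.1 had 0 counts in every library and 11 were tested, 5 of them graded. The median log2 fold change against WT was -0.76 in ap2-12 and 0.25 in rAP2-VENUS. NIA2, the main nitrate reductase, had steps of -2.41 (SE 0.33) and 1.21 (SE 0.29). It was not graded because WT at 21.7 to 35.4 CPM overlapped rAP2-VENUS at 34.1 to 83.1 CPM. NIA1 was 18.3, 16.8 and 17.8 CPM on average in ap2-12, WT and rAP2-VENUS.

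Among carriers of organic nitrogen, AAP7, an amino acid permease, was 3.90 ± 0.686 CPM (SD, n = 4) in ap2-12, 21.8 ± 6.01 in WT and 36.9 ± 4.88 in rAP2-VENUS. UMAMIT27, an amino acid exporter by family, was 1.23 ± 0.594, 2.93 ± 0.276 and 6.02 ± 1.1 CPM, with at least 2-fold in both steps. GDU4, of the glutamine dumper family, was 2.67 ± 0.638, 4.17 ± 0.375 and 11.0 ± 0.800 CPM, and its upper step of 1.42 (SE 0.16) was larger than its lower step of -0.71 (SE 0.17). The falling genes of the group were UPS1, a ureide permease, at 4.59 ± 0.798, 2.24 ± 0.323 and 1.19 ± 0.268 CPM, and AAH, allantoate amidohydrolase of ureide breakdown, at 11.8 ± 1.32, 6.88 ± 0.989 and 3.43 ± 0.464 CPM.

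Genes of glucosinolates, the sulphur-rich defence compounds of this family, and of the stomatal and myrosin cell lineage were found on both sides. CYP79B3, which starts indole glucosinolate synthesis from tryptophan, had the largest log2 change of the falling set. It was at 15.1, 10.1, 7.93 and 4.50 CPM in ap2-12, 2.69, 2.31, 0.800 and 1.61 CPM in WT and 0.150, 0, 0.473 and 0.139 CPM in rAP2-VENUS. The rAP2-VENUS libraries held 9 counts in all and WT 95, a ratio of 10.5 in level (95% exact interval from counting alone 5.30 to 23.6), and replicate 1 of ap2-12 was more than 3 times replicate 4. The log2 fold changes were 2.28 (SE 0.45) in ap2-12 and -3.31 (SE 0.68) in rAP2-VENUS.

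FAMA, a bHLH factor of guard cells and myrosin cells, was the member of this group on a fixed list. It was at 2.87, 5.12, 4.83 and 4.16 CPM in ap2-12, 10.5, 10.6, 11.9 and 11.6 CPM in WT and 22.3, 21.9, 20.7 and 17.4 CPM in rAP2-VENUS. The 3 groups lay far apart against their own spread, with steps of -1.46 (SE 0.16) and 0.90 (SE 0.15). MPK12, a kinase of guard cells, was 2.18 ± 0.273 CPM (SD, n = 4) in ap2-12, 5.38 ± 0.169 in WT and 6.48 ± 0.333 in rAP2-VENUS. CHAL, a peptide that acts on stomatal patterning, was in the falling set at 20.8 ± 2.43, 14.2 ± 2.94 and 9.02 ± 1.46 CPM, and lost the order under all 3 other scalings. NSP1, which turns glucosinolate breakdown towards nitriles, was 88.3 ± 7.68, 53.3 ± 3.29 and 34.7 ± 6.26 CPM.

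RAB18, a dehydrin induced by abscisic acid and drought, had the largest change of the rising set. It was at 0, 0, 0.0721 and 0.0693 CPM in ap2-12, 1.76, 3.63, 3.49 and 3.08 CPM in WT and 4.04, 4.66, 5.29 and 3.89 CPM in rAP2-VENUS. The 4 ap2-12 libraries held 2 counts together and the WT libraries 164, a ratio of 85.8 with an exact 95% interval of 23.4 to 715 from counting alone. The upper step was 0.58 (SE 0.27) on the log2 scale. P5CS1, the proline synthesis enzyme of water deficit, was 40.3 ± 4.95 CPM (SD, n = 4) in ap2-12, 150 ± 36.3 in WT and 197 ± 8.16 in rAP2-VENUS. WT replicate 1 was the lowest of its group at 99.7 CPM. SNRK2.5, a kinase of osmotic stress, was in the falling set at 39.1 ± 3.61, 23.8 ± 0.969 and 19.5 ± 2.28 CPM.

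Other rising genes with large changes were low in ap2-12. AT5G18840, a major facilitator by its RefSeq name, was at 0.0797, 0, 0.0721 and 0.485 CPM in ap2-12, 4.13, 3.96, 6.47 and 6.80 CPM in WT and 7.63, 10.8, 13.6 and 11.2 CPM in rAP2-VENUS. Its ap2-12 libraries held 9 counts, most of them in replicate 4, against 286 in WT, a ratio of 33.3 (exact 95% interval from counting alone 17.3 to 73.5). AT2G27240, of the aluminium-activated malate transporter family, was at 0.637, 0.208, 0.576 and 0.0693 CPM, at 4.75, 5.02, 5.67 and 5.68 CPM and at 9.57, 9.33, 9.83 and 8.33 CPM. Its WT and rAP2-VENUS libraries were each close together, with a step of 0.83 (SE 0.24) between them. AT3G45680, whose upstream sequence is shown above, was 0.657 ± 0.330 CPM (SD, n = 4) in ap2-12, 6.41 ± 1.83 in WT and 8.93 ± 0.750 in rAP2-VENUS. CSLB03, a cellulose synthase-like gene, was at 0.398, 0.485, 0.649 and 0.416 CPM in ap2-12, 5.79, 3.70, 2.25 and 2.45 CPM in WT and 10.7, 6.78, 7.09 and 5.97 CPM in rAP2-VENUS. Replicate 1 was the highest CSLB03 library of both WT and rAP2-VENUS, and the steps were -2.89 (SE 0.36) and 1.14 (SE 0.29).

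Several rising genes were at least 2-fold apart in both steps, among them genes of DNA-binding proteins. AT1G26680, a B3-family factor by its RefSeq name, was at 2.47, 1.66, 1.87 and 1.46 CPM in ap2-12, 6.20, 5.28, 5.09 and 4.70 CPM in WT and 20.6, 15.0, 16.8 and 17.7 CPM in rAP2-VENUS. It was 2.99-fold lower in ap2-12 than in WT (log2 fold change -1.58, SE 0.17) and 3.35-fold higher in rAP2-VENUS (1.74, SE 0.15), the largest upper step of the rising set. AT3G57600, with an AP2/ERF-type DNA-binding domain by its RefSeq name, was 3.11 ± 0.606 CPM (SD, n = 4) in ap2-12, 6.57 ± 0.785 in WT and 15.7 ± 1.71 in rAP2-VENUS. Rap2.6L, an ERF factor, was 0.679 ± 0.196, 2.02 ± 0.583 and 4.48 ± 0.930 CPM. MEE23, of the FAD-binding berberine family, was 1.32 ± 0.480, 3.60 ± 0.851 and 8.39 ± 0.642 CPM, and AT3G53980, of the lipid-transfer superfamily, was 6.08 ± 0.755, 23.1 ± 2.60 and 50.4 ± 2.99 CPM.

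GL3, a bHLH factor of trichome formation, and PRN were among the falling genes with the largest changes. GL3 was at 4.46, 5.19, 4.68 and 5.47 CPM in ap2-12, 1.03, 0.990, 1.16 and 0.701 CPM in WT and 0.598, 0.353, 0.378 and 0.208 CPM in rAP2-VENUS. With a mean of 2.1 CPM it was near the lower limit of the rule, and its steps were 2.28 (SE 0.24) and -1.30 (SE 0.30). PRN was at 15.9, 14.8, 16.1 and 14.8 CPM, at 3.00, 2.71, 3.13 and 2.66 CPM and at 1.57, 1.41, 1.89 and 1.11 CPM. Its libraries were close together in each genotype, and its lower step of 2.35 (SE 0.14), or 5.10-fold, was the largest of the falling set. LTP2, a lipid-transfer protein of the epidermis and cuticle, was 79.7 ± 9.52 CPM (SD, n = 4) in ap2-12, 19.4 ± 1.53 in WT and 14.6 ± 1.25 in rAP2-VENUS. HDG1, a homeodomain gene of the epidermis, had small steps of 0.16 (SE 0.09) and -0.28 (SE 0.09) and lost the order under all 3 other scalings.

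The remaining large falling genes belong to metabolism. AT1G54020, a GDSL lipase by its RefSeq name, was at 77.8, 87.6, 95.1 and 70.1 CPM in ap2-12, 27.1, 30.6, 26.8 and 31.4 CPM in WT and 20.8, 11.1, 15.5 and 10.7 CPM in rAP2-VENUS, with steps of 1.44 (SE 0.17) and -0.99 (SE 0.18). TPS04, a terpene synthase of geranyllinalool, was 5.47 ± 2.28 CPM (SD, n = 4), 2.07 ± 0.572 and 1.08 ± 0.272 CPM. AT1G12160, a flavin monooxygenase, was 3.93 ± 0.825, 1.83 ± 0.301 and 0.912 ± 0.599 CPM. The spread of TPS04 within ap2-12, from 3.43 to 8.38 CPM, and of AT1G12160 within rAP2-VENUS, from 0.374 to 1.53 CPM, was wide against the steps.

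By mean level, RBCS3B, GLU1 and AT1G13930, an oleosin-like gene by its RefSeq name, led the rising set. AT1G13930 was at 145, 169, 187 and 212 CPM in ap2-12, 281, 229, 321 and 317 CPM in WT and 355, 446, 435 and 450 CPM in rAP2-VENUS. CWLP, a proline-rich cell wall protein gene, led the falling set with 588 ± 50.8 CPM (SD, n = 4) in ap2-12, 357 ± 17.1 in WT and 299 ± 21.5 in rAP2-VENUS. AT1G55360 and AT3G13510, which share the DUF239 domain in their RefSeq names, were at 346 ± 11.6, 249 ± 16.6 and 218 ± 9.37 CPM and at 251 ± 8.60, 224 ± 11.3 and 202 ± 9.30 CPM. CWLP and AT3G13510 lost the order under all 3 other scalings.

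The smaller role groups were also drawn up after the values were seen. Chromosome and chromatin genes were all falling and had small steps: IDN2, of RNA-directed DNA methylation, was 229 ± 7.09 CPM (SD, n = 4) in ap2-12, 163 ± 11.7 in WT and 123 ± 5.72 in rAP2-VENUS. CHR12, a chromatin remodeller, was 112 ± 2.59, 98.3 ± 1.14 and 89.8 ± 3.78 CPM, while SPO11-1, MAD2 and TRB1 lost the order under at least 2 other scalings. Among meristem and leaf regulators, GRF8, a growth-regulating factor, was 40.2 ± 1.97, 29.1 ± 2.51 and 22.8 ± 1.17 CPM, and CLE42, a signalling peptide, was 6.98 ± 0.919, 3.91 ± 0.404 and 2.72 ± 0.663 CPM. BLH4, a homeodomain gene that limits leaf margin growth, went the other way at 10.3 ± 1.53, 15.2 ± 0.790 and 21.8 ± 0.623 CPM.

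Of auxin genes, the efflux carrier PIN7 was 45.7 ± 8.61 CPM (SD, n = 4) in ap2-12, 63.9 ± 5.22 in WT and 74.2 ± 3.63 in rAP2-VENUS, keeping its order under 1 of 3 other scalings. WRKY23, which acts in auxin responses, was 5.43 ± 0.498, 7.84 ± 1.34 and 15.9 ± 3.04 CPM, and MES17, an esterase that frees auxin from its methyl ester, was 14.1 ± 1.94, 18.8 ± 1.28 and 29.0 ± 3.46 CPM. NF-YA3 and NF-YA6, subunits of a CCAAT-binding complex, were both rising, with upper steps of 0.51 (SE 0.09) and 0.55 (SE 0.14). The sugar genes SPS3F, a sucrose phosphate synthase, and TPPB, a trehalose phosphate phosphatase, had steps of 0.75 (SE 0.17) and 0.56 (SE 0.22) from WT to rAP2-VENUS.

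Among graded genes outside these groups, AT2G31110 was 1.32 CPM on average in ap2-12, 6.62 in WT and 9.15 in rAP2-VENUS, and AT2G45180, of the lipid-transfer superfamily, had steps of -1.96 and 0.58 against WT on the log2 scale. AT2G16660, a major facilitator by its RefSeq name, was 46.3, 66.6 and 161 CPM, with an upper step of 1.29 that was larger than its lower step of -0.60. HIPP20, of the heavy-metal-associated isoprenylated proteins, was 2.15, 3.94 and 9.14 CPM. In the falling set, JR1, a jasmonate-responsive lectin, was 297 CPM in ap2-12, 173 in WT and 116 in rAP2-VENUS. WRKY22, a defence regulator, was 14.9, 7.37 and 5.57 CPM, with most of its change between ap2-12 and WT.

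The edge of the rule falls among genes of few counts. Just inside were FAF4, a regulator of meristem size, at a mean of 2.04 CPM, and GL3 at 2.1 CPM. Just outside, in graded order but below the limit, were AT1G58410 at 1.94 CPM, the amino acid transporter LHT1 at 1.92 CPM and AT3G01630 at 1.90 CPM. LHT1 was 3.95, 1.37 and 0.432 CPM on average in ap2-12, WT and rAP2-VENUS.

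The contrast between replicate numbers was not ordered by the rule, though a gene with little spread within a genotype meets the rule more easily. In an edgeR fit of genotype and replicate number, 29.5% of the genes tested differed between replicate numbers (adjusted p under 0.05), and 9 of the 196 graded genes did (4.59%). They were PDCB3, LPLAT2, CRC, AT4G10270, PCO1 and PCO2 among the falling genes and AT1G26450, AT2G45180 and CA1 among the rising genes. PCO2 was at 30.4, 6.40 and 2.17 CPM in replicate 1 of ap2-12, WT and rAP2-VENUS and at 14.4, 3.08 and 1.74 CPM in replicate 4. CA1 was lowest in replicate 1 and highest in replicate 4 of every genotype. The count of 9 was 4 without ap2-12 replicate 1 or replicate 4, 5 without WT replicate 1 or replicate 4 and 6 without rAP2-VENUS replicate 4. It was 12 without WT replicate 3 or rAP2-VENUS replicate 3, and 10 without rAP2-VENUS replicate 1 or with DESeq2.

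The graded genes lie on all 5 chromosomes, with 63, 30, 47, 21 and 35 on chromosomes 1 to 5, where the genes that reached 2 CPM have shares of 26.3%, 15.0%, 20.0%, 15.1% and 23.6%. Immediate neighbours formed 4 pairs. RBCS3B and RBCS2B were both rising, and AT1G73940 and AT1G73950 were both falling. The latter 2 genes had both steps under 1.2-fold and lost the order under all 3 other scalings. NF-YA3 (rising) lies beside AT1G72840 (falling), a disease-resistance type gene, and CWLP (falling) beside AT3G22142 (rising), a lipid-transfer type gene. The sources used here give no strand setting for the counting, so overlapping or antisense transcripts of such pairs may not have been told apart.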

How the data were processed

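RNA was measured in 12 libraries, 4 of each genotype, grouped by the genotype label. Single reads of 150 bases were sequenced from TruSeq libraries, per the labels' protocols. The deposited values are raw counts per gene, whole numbers with no normalization, and the build is TAIR10, per the file headers. The submitters' processing notes name HTSeq, TopHat2 and SAMtools, with no version. The sources used here give no strand setting. The 210 organelle rows hold 0 counts.

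The members and gene lists were chosen with earlier results of these data known. CPM was computed on column totals. Genes kept by filterByExpr (18807) entered 1 edgeR quasi-likelihood fit of all libraries with TMM scaling and genotype as the only term, calling genes at a Benjamini-Hochberg adjusted p under 0.05. The biological coefficient of variation was 0.174. SE came from each log2 fold change over the root of its F statistic, which can understate the error for genes with few counts in a genotype. No p is given for a graded gene between genotypes. The code of the fit and of the ordering rule was run on simulated data. For the rule, the simulated steps were larger than most steps here, so that run says nothing about genes with small steps. Library totals of 9680133 to 15152704 set the precision. Exact intervals pool the libraries of a genotype, cover counting error only and are no test, as the genes were selected on these differences. Replicates of a genotype differed beyond sampling noise (chi-square per degree of freedom 5 to 45.8). The labels call replicates biological but name no separate cultures, dates or batches.

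Genes were named by rule: AP2, and in each direction the 8 largest changes from ap2-12 to rAP2-VENUS, the 6 with the largest smaller step, the 3 most abundant, every graded gene on 1 of 12 fixed lists, and 3 on each side of the 2 CPM limit. Of these, 1 gene is not reported here. Others in the role groups were chosen after their values were seen. The lists cover floral identity, flowering, miR172 targets, photosynthesis, xylem, tapetum, carpel, meristem, glucosinolates, gibberellin, clock and handling genes. Names came from RefSeq TAIR10.1, where 26719 of 27416 identifiers and all 196 members were found. Promoter windows were read from that assembly's sequence and annotation.

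Same-numbered rAP2-VENUS and WT libraries deviated together, with correlations across genes of 0.626, 0.227, 0.198 and 0.429, all positive. The fit reported has no replicate block, so its SE and calls take no account of this. With the block, genes called in rAP2-VENUS against WT went from 118 to 424. For ap2-12 and WT the correlations were -0.0146 to 0.604, with that of replicate 2 not positive. Alternatives were other scalings and level limits, the replicate block, DESeq2, no low-count filter, a fit of only 2 genotypes and leaving out each library. The tools were edgeR 4.0.16, DESeq2 1.42.0 and limma 3.58.1 in R 4.3.3, and Python 3.11.15 with pandas 2.3.3, scipy 1.17.1 and matplotlib 3.10.9.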

Additional observations from a re-analysis of the deposited data

Results flagged for a closer look

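Among 39 graded genes named by rule, 117 groups of 4 libraries were searched for a library far from its group, and 7 had one. Chance gives about 1 such group in 20. In ap2-12, replicate 1 was low for both neighbouring Rubisco genes, with RBCS3B at 242 CPM against 284 to 289 CPM in the others and RBCS2B at 10.3 CPM against 18.0 to 19.5 CPM. AT5G18840 was at 0.485 CPM in ap2-12 replicate 4 against 0 to 0.0797 CPM. In rAP2-VENUS, replicate 4 was high for CA1, at 244 CPM against 191 to 196 CPM, and for GLU1, at 303 CPM against 291 to 292 CPM. AT1G13930 was at 355 CPM in rAP2-VENUS replicate 1 against 435 to 450 CPM in the others. XCP2 was at 27.5 CPM in WT replicate 4 against 23.3 to 23.6 CPM.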

How the results depend on the processing

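The number of graded genes, 196, was 194 with TMM-scaled totals (165 of the 196 among them), 197 with DESeq2 size factors (162), 195 with upper-quartile scaling (165), 209 and 159 with means of at least 1 and 5 CPM, and 218 with no limit. Leaving out a library gave 206 to 316 genes, 296 without WT replicate 1 and 316 without WT replicate 3, with 194 to 196 of the members kept. That fewer libraries ease the rule is part of its construction. Of the 36 members that lost the order under a scaling, 32 were falling and 4 rising. The part of library scaling in the excess of falling genes with small steps was not tested. Genes called in ap2-12 against WT numbered 2866, 5419 with the replicate block and 2038 to 3143 without a library. For rAP2-VENUS against WT they numbered 118, 424 with the replicate block, 340 with DESeq2, 86 in a fit of only the 2 genotypes and 55 to 155 without a library. Without WT replicates 1, 2 or 4 there were 69, 57 and 58, and without rAP2-VENUS replicates 1 to 4 there were 76, 64, 55 and 71. For rAP2-VENUS against ap2-12 they numbered 3686, 6215 with the replicate block and 2792 to 4097 without a library. Between replicate numbers, 5548 genes were called and 3019 to 5663 without a library, with 3380 without ap2-12 replicate 1 and 3019 without WT replicate 1. The cause of the other differences was not tested. Of 1988 fold changes of the named members under alternatives, 1962 moved by less than their replicate spread, 26 moved further and 0 changed sign. The rule chose members whose libraries do not overlap between genotypes, so kept signs are largely part of its construction. Low counts limit UFO, RAB18, AT5G18840, CYP79B3 and the genes near 2 CPM.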

Other observations

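Of the other gene lists, counted without the graded genes and the loci left out, the 13 tapetum and pollen wall genes were the most often called in ap2-12 against WT, with 10 higher and none lower by edgeR, at an unadjusted p under 0.05 or by DESeq2. With the replicate block 11 were higher and 1 lower. Their median log2 fold change was 1.38 in ap2-12 and 0.33 in rAP2-VENUS. Of 8 shoot meristem genes 3 were called lower (5 with the replicate block), of 5 flowering genes 2 were called lower, and of 3 glucosinolate genes 2 were called lower, with none higher in these lists by any of the same counts. Of 3 miR172 target genes 1 was higher and 1 lower, the lower one being AP2 itself, the gene altered in the mutant. Of 14 gibberellin genes 3 were higher and 1 lower (5 and 2 with the replicate block). None of 12 clock genes was called in ap2-12 by edgeR, at an unadjusted p under 0.05 or by DESeq2, while 2 were called higher with the replicate block. Of 8 handling genes none was called by edgeR, with 2 higher and 1 lower at an unadjusted p under 0.05 and 2 higher by DESeq2, and with the replicate block 2 higher and 1 lower.

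In rAP2-VENUS against WT edgeR called none of the genes of these lists. At an unadjusted p under 0.05 there were 2 tapetum, 1 meristem and 1 glucosinolate genes higher, 2 flowering, 1 miR172 target and 4 gibberellin genes lower, 2 handling genes higher and 1 lower, and no clock gene. DESeq2 called 1 gibberellin gene, lower, and none of the others, and the replicate block called 1 clock gene, higher.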
